A study of Mus musculus with 12 samples.

Results

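GFP-positive cells of 2 mouse embryonic stem cell clones, clone 10 and clone 4, were compared gene by gene. The comparison rests on 6 of the 12 RNA sequencing libraries of the series, chosen by their labels: 3 of clone 10 GFP-positive cells and 3 of clone 4 GFP-positive cells. Both clones are labelled as descended from mice with a floxed Sphk1 (Sphk1 fl/fl) and no Sphk2 (Sphk2-/-), so the Sphk2 deletion is common to all 12 libraries. All cultures, GFP-negative ones included, spent 48 hours with (Z)-4-hydroxytamoxifen at 6 uM, in medium with serum and LIF, and were then sorted by Cre-GFP. GFP-positive cells are labelled Sphk1-/- Sphk2-/- in both clones, and GFP-negative cells (3 libraries per clone) keep the label Sphk1 fl/fl Sphk2-/-. The promoter behind Cre-GFP is not given in the sources used here. Each side of the comparison is 1 clone, so a difference between these clones cannot be told apart from one between any 2 clones of this genotype. Clone 10 GFP-positive replicates 1, 2 and 3 are labelled passages 12, 18 and 20, and clone 4 GFP-positive replicates passages 11, 14 and 16. GFP-negative replicates are labelled 11, 17 and 19 in clone 10 and 11, 13 and 15 in clone 4. Beyond 11 these labels rise by 1 with each sample in series order, across clones and gates, so they may not be true passages. The labels do not say if replicates were separate cultures, so a p-value here reflects only how far the libraries of a group spread, which may be technical.

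As background, embryonic stem cells are derived from the inner cell mass of the blastocyst and are kept in self-renewal by LIF. A small and changing share of cells in such cultures passes through a state in which genes of the 2-cell embryo are transcribed, among them the Zscan4, Usp17l and Tdpoz families. Sphk1 and Sphk2 encode the sphingosine kinases, which make sphingosine 1-phosphate, a lipid that acts inside cells and through receptors on their surface. Here both clones carry the same genotype label, so the comparison asks what differs between clones when the label does not.

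The clone 10 GFP-positive libraries held 19112398, 33215399 and 20285761 counts, against 20798307, 20655269 and 34258395 in clone 4. The share of counts in mitochondrial genes was 0.849%, 2.32% and 1.22% in clone 10, against 0.851%, 0.896% and 2.21% in clone 4, so the deepest library of each clone also had the highest mitochondrial share. All 11 stem cell markers used to check the labelled cell type were above 1 CPM (read counts scaled to library size with the TMM factors of edgeR) in each of the 6 libraries, and 0 of them were called between the clones. Pou5f1, the pluripotency factor also known as Oct4, stood at 1460, 1560 and 1020 CPM in clone 10 and at 1380, 889 and 1310 CPM in clone 4. Nanog stood at 590, 1060 and 832 CPM in clone 10 and at 432, 322 and 801 CPM in clone 4. The summed level of 11 fibroblast markers was 829 to 1603 CPM across the clone 10 libraries and 795 to 1299 CPM across those of clone 4. Most of that sum was Fn1, at 734, 985 and 1230 CPM in clone 10 and 739, 1140 and 848 CPM in clone 4, while the collagen genes Col1a1, Col1a2 and Col3a1 had log2 differences of 1.07, 1.23 and 1.31, Thy1 1.14 and S100a4 1.62, none of them called. Without clone 10 replicate 3 that of Col1a2 was -0.37. Of the 3 blood markers, Hbb-bs had 0 counts in all 6 libraries, Ptprc had 5 counts in clone 10 and 6 in clone 4, and Cd68, a lysosomal protein of macrophages, stood at 57, 55 and 75.5 CPM in clone 10 and 61.7, 45.6 and 24.7 CPM in clone 4.

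Sphk1 (mm10 chromosome 11, 116530925 to 116536674) was low in both clones. It stood at 0.87, 1.21 and 2.86 CPM in clone 10 and at 1.89, 1.00 and 0.73 CPM in clone 4, which overlap (log2 difference 0.45, SE 0.65, adjusted p = 0.83 by the quasi-likelihood test of edgeR, as for every adjusted p of a gene here). Sphk2 (chromosome 7, 45709467 to 45718002) stood at 5.32, 8.57 and 5.62 CPM in clone 10 and at 2.29, 1.78 and 7.72 CPM in clone 4, which overlap as well (0.72, SE 0.65, adjusted p = 0.692). A log2 difference of 1 is a ratio of 2, and positive values mean higher in clone 10 throughout. Sphk1 was low as well in GFP-negative cells, which keep the label Sphk1 fl/fl. There it stood at 0.836, 1.51 and 4.17 CPM in clone 10 and at 1.92, 2.8 and 1.74 CPM in clone 4. The deleted exons are not named in the labels, and a gene total also counts reads of the exons that remain. The genotype is therefore not checked by these values.

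Between the clones, 168 of the 15179 genes tested were called at an adjusted p under 0.05, or 1.11%. Of these, 126 were higher in clone 10 (0.83%) and 42 were lower (0.277%). The higher genes had a median log2 difference of 3.44, and 98 of them were beyond 2. The lower genes had smaller differences, with a median of -1.33 and 9 beyond -2. Of the higher genes, 30 carry predicted or clone names (Gm or Rik), against 1 of the lower. In all 168 the 3 libraries of clone 10 stood on one side of the 3 libraries of clone 4, which was also the case for 1895 genes (12.5%) in the higher and 1875 (12.4%) in the lower direction among all genes tested. The calls hung on single libraries. They numbered 0 without clone 10 replicate 1, 3 without clone 10 replicate 3, 0 without clone 4 replicate 2 and 0 without clone 4 replicate 3, and 135 without clone 10 replicate 2 and 245 without clone 4 replicate 1. Since all 12 libraries share 1 estimate of the spread, GFP-negative libraries mattered too, with 287, 65 and 92 calls without clone 10 GFP-negative replicates 1, 2 and 3 and 93 without clone 4 GFP-negative replicate 3. In every fit without 1 library all 168 genes kept their sign and an unadjusted p under 0.05.

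The genes with the largest differences in clone 10 were genes of the 2-cell-like state and a group of others that are not on that list. Among the others, Tmprss5 (chromosome 9, 49081260 to 49117587), which encodes a transmembrane serine protease, stood at 5.17, 8.28 and 12.4 CPM in clone 10 and at 0.36, 0.0912 and 0.122 CPM in clone 4. Its log2 difference of 5.49 (SE 0.75, adjusted p = 0.017) was the largest among named genes. Mecom (chromosome 3, 29951299 to 30548008), a zinc finger transcription factor of the EVI1 locus, stood at 70.7, 32.7 and 57.8 CPM in clone 10 and at 4.54, 1.09 and 1.22 CPM in clone 4 (4.56, SE 0.58, adjusted p = 0.017). In both genes every clone 10 library was several times above every clone 4 library. Dcc, the netrin receptor of growing axons, stood at 30, 7.20 and 13.5 CPM in clone 10 and at 1.75, 0.274 and 0.243 CPM in clone 4 (4.49, SE 0.83, adjusted p = 0.0331). Chrm3, a muscarinic acetylcholine receptor, stood at 23.5, 8.57 and 16.9 CPM in clone 10 and at 1.84, 0.41 and 0.304 CPM in clone 4 (4.27, SE 0.80, adjusted p = 0.035). Ubtfl1, an HMG box gene of the preimplantation mouse embryo, stood at 35.4, 8.72 and 26.5 CPM in clone 10 and at 2.52, 0.182 and 0.152 CPM in clone 4 (4.65, SE 0.97, adjusted p = 0.0452). In Dcc, Chrm3 and Ubtfl1 replicate 2 was the lowest clone 10 library and replicate 1 the highest clone 4 library.

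**Figure D1:**
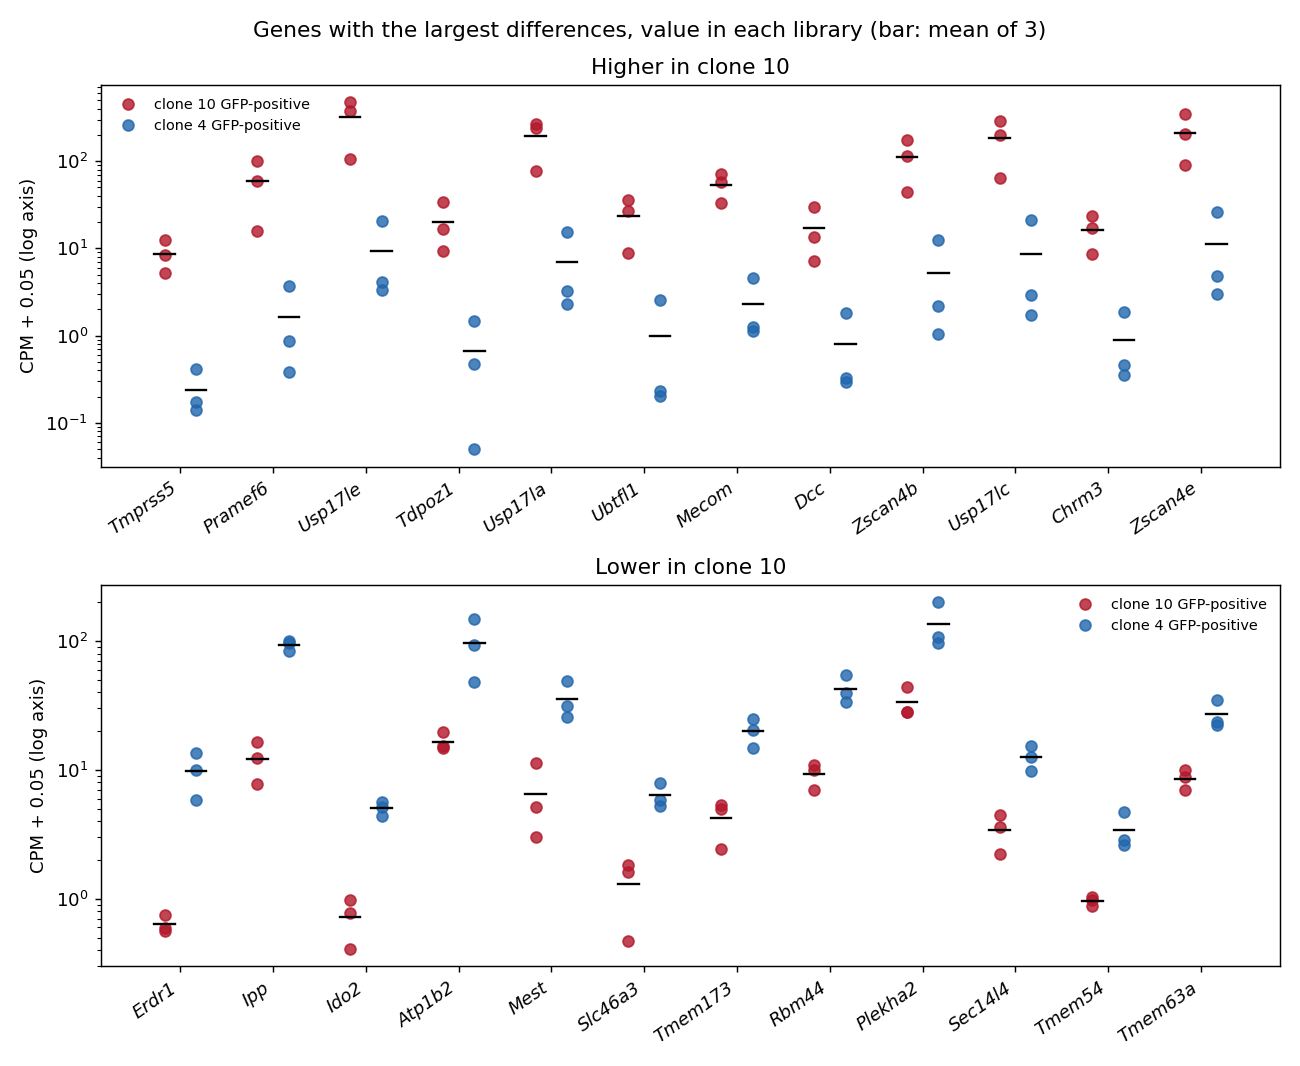
CPM plus 0.05 on a log axis for the 12 genes with the largest positive (top) and the 12 with the largest negative log2 difference (bottom) by the naming rule, with clone 10 GFP-positive libraries left of clone 4 GFP-positive libraries and a bar at the mean of 3. The points of the clones do not overlap in any of the 24 genes because the naming rule took only such genes. In the top row the clone 10 points lie from 5.17 CPM (Tmprss5) to 473 CPM (Usp17le) while the clone 4 points reach 26.1 CPM (Zscan4e).

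Genes of the 2-cell-like state were higher in clone 10. Of 25 members tested, 9 were called higher and 0 lower, against 0.83% of all genes called higher, and the list median was 4.40, against -0.004 over all genes tested. The clones did not overlap in 24 of the 25, all higher in clone 10, against 12.5% of all genes. The calls on this list numbered 3 without clone 10 GFP-negative replicate 2 and 5 without GFP-negative replicate 3 of either clone. They were 0 without clone 10 replicate 1, clone 10 replicate 3, clone 4 replicate 2 or clone 4 replicate 3, and 24 without clone 4 replicate 1, while the list median lay between 3.77 and 6.15 in all fits without 1 library. Zscan4 genes encode SCAN domain zinc finger proteins known for telomere lengthening in mouse embryonic stem cells. Zscan4e stood at 345, 90.5 and 203 CPM in clone 10 and at 26.1, 4.74 and 2.92 CPM in clone 4 (4.24, SE 0.77, adjusted p = 0.0314). Zscan4b stood at 177, 44.6 and 114 CPM in clone 10 and at 12.5, 2.14 and 1.00 CPM in clone 4 (4.43, SE 0.82, adjusted p = 0.0329). Zscan4f stood at 188, 54.5 and 132 CPM in clone 10 and at 17.8, 2.60 and 2.19 CPM in clone 4 (4.05, SE 0.82, adjusted p = 0.0422). The order of libraries was the same in these 3 genes, with replicate 1 highest and replicate 2 lowest in clone 10. Zscan4c, at 556, 119 and 354 CPM in clone 10 and 39.2, 6.29 and 4.23 CPM in clone 4, missed the threshold (4.38, SE 0.98, adjusted p = 0.0551).

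The upstream sequences of Zscan4b and Zscan4f are shown to let these copies be compared letter by letter. Zscan4, Usp17l and PRAME genes are families of near-identical copies, so reads can be shared between copies and the value of any 1 copy is uncertain. They are RefSeq promoters of build GRCm38.p6 (300 bases, most of them upstream of the start of the gene), at chr7:10905001-10905300 on the minus strand and chr7:11397665-11397964 on the plus strand, and 287 of 300 aligned bases (95.7%) were identical. Capitals mark the TATA box letters TATAAA, the CCAAT box, and TGATTNAAT, which is known as the binding motif of the 2-cell factor DUX, searched on both strands, and no 2 matches overlapped.
Zscan4b: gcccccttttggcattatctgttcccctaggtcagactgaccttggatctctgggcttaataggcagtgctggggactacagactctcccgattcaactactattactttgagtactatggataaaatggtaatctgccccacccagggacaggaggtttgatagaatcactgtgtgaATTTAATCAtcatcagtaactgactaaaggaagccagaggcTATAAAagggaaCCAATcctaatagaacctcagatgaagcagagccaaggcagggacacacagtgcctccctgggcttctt
Zscan4f: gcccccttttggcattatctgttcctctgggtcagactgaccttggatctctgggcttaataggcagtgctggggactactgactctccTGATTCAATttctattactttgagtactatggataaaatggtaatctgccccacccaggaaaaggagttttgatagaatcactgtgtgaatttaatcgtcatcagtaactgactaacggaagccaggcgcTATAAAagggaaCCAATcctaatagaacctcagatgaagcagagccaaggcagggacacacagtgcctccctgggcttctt
Both held TATAAA at bases 220 to 225 and CCAAT at bases 232 to 236. TGATTNAAT was at bases 179 to 187 of Zscan4b, on the reverse strand, and at bases 90 to 98 of Zscan4f, on the forward strand, so the copies differ at each other's match. Of all 32851 promoters in the RefSeq table, 13.6% held TATAAA, 37.4% CCAAT and 0.718% TGATTNAAT. A match describes the letters only.

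The Usp17l genes, which encode deubiquitinating enzymes, gave 3 of the 9 calls. Usp17le stood at 473, 106 and 375 CPM in clone 10 and at 20.7, 4.06 and 3.25 CPM in clone 4 (5.09, SE 0.86, adjusted p = 0.0299). Usp17la stood at 264, 78.1 and 242 CPM in clone 10 and at 15.5, 2.28 and 3.16 CPM in clone 4 (4.8, SE 0.82, adjusted p = 0.0302). Usp17lc was called as well (4.41, SE 0.91, adjusted p = 0.045). The other calls of the list were Tdpoz1, a gene of the speckle-type POZ protein family (5.0, SE 0.95, adjusted p = 0.0353), the nuclear body gene Sp110 (4.06, SE 0.83, adjusted p = 0.0424) and Pramef6 (5.22, SE 0.98, adjusted p = 0.0345). Pramef6 is a leucine-rich repeat gene that stood at 101, 15.9 and 59.9 CPM in clone 10 and at 3.64, 0.821 and 0.334 CPM in clone 4, and it was the only one of 9 tested PRAME family genes called. The PRAME list had a median of 3.39, with 6 members higher in clone 10 without overlap. Over all genes tested, 0.83% were called higher and 12.5% were higher without overlap. Pramef6 is counted on both lists, so its call on the PRAME list is not a separate one.

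Summed over the list, 2-cell-like genes stood at 5670, 1561 and 3810 CPM in clone 10 GFP-positive libraries and at 592, 150 and 294 CPM in clone 4 GFP-positive libraries. In GFP-negative cells the sums were 554, 461 and 364 CPM in clone 10 and 188, 88.8 and 210 CPM in clone 4, so the clone 10 libraries were above the clone 4 libraries there too, at a lower level. The list median in GFP-negative cells was 3.60. In bulk libraries, more cells in a state and more RNA per cell in that state cannot be told apart. Genes named as regulators of the state gave 0 calls of 23 tested, with a median of 0.11, where 1.11% of all genes tested were called. The largest difference on that list was 4.38, in Zscan4c, whose values are given above. Calls on it numbered between 0 and 2 without 1 library. Nelfa, a subunit of the negative elongation factor, stood at 1310, 319 and 851 CPM in clone 10 and at 310, 137 and 127 CPM in clone 4 (2.11, SE 0.50, adjusted p = 0.0602). Dppa2, also on the list of regulators, stood at 315, 310 and 268 CPM in clone 10 and at 126, 30.5 and 152 CPM in clone 4 (1.53, SE 0.63, adjusted p = 0.284). Dppa3, a maternal factor that protects methylated DNA, is on the list of naive pluripotency genes and not on that of regulators. It stood at 31.8, 18.9 and 34.1 CPM in clone 10 and at 11.0, 8.12 and 4.83 CPM in clone 4 (1.82, SE 0.49, adjusted p = 0.0946). Nelfa, Dppa2 and Dppa3 did not pass the test, although the clones did not overlap in any of them.

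Histone genes were another group with a high median. Of 34 tested replication-dependent histone genes, 3 were called higher and 0 lower, with a list median of 2.44, all 34 differences above 0 and 29 without overlap between the clones. Over all genes tested, 0.83% were called higher and 12.5% were higher without overlap. Without clone 10 replicate 1, clone 4 replicate 2 or clone 4 replicate 3 the calls were 0, and without clone 10 replicate 3 there was 1. They were 7 without clone 10 replicate 2 and 9 without clone 10 GFP-negative replicate 1, and the list median lay between 2.05 and 2.82. Hist1h4i (chromosome 13, 22040816 to 22041352), an H4 gene, stood at 199, 73.7 and 234 CPM in clone 10 and at 12.9, 17.2 and 9.18 CPM in clone 4 (3.69, SE 0.43, adjusted p = 0.0136). Hist1h2bc, an H2B gene, stood at 20.0, 12.3 and 21.8 CPM in clone 10 and at 4.18, 3.65 and 3.56 CPM in clone 4 (2.25, SE 0.36, adjusted p = 0.0264). Hist2h3c1, an H3 gene of another cluster, stood at 3.53, 5.17 and 10.2 CPM in clone 10 and at 0.72, 0.502 and 0.365 CPM in clone 4 (3.57, SE 0.70, adjusted p = 0.0393). The summed level of the list was 473, 161 and 487 CPM in clone 10 GFP-positive cells and 62.9, 65.6 and 39.6 CPM in clone 4 GFP-positive cells. In GFP-negative cells it was 211, 56.9 and 80.4 CPM in clone 10 and 68.8, 75.2 and 50.5 CPM in clone 4, where the clones overlapped, and the list median was 1.17. Most transcripts of these genes end in a stem-loop and not in a poly(A) tail, and the library kit named in the labels selects poly(A) RNA, so only part of histone RNA was counted. G1/S and replication genes, which are transcribed in the same phase of the cell cycle as these histone genes, had a median of 0.08 with 0 of 25 called, and G2/M genes had a median of 0.22 with 0 of 34 called.

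The promoter of Hist1h4i is printed as that of the gene with the smallest adjusted p on the histone list (RefSeq H4c9, GRCm38.p6, chr13:22041313-22041612, minus strand), with the same motifs in capitals.
Hist1h4i: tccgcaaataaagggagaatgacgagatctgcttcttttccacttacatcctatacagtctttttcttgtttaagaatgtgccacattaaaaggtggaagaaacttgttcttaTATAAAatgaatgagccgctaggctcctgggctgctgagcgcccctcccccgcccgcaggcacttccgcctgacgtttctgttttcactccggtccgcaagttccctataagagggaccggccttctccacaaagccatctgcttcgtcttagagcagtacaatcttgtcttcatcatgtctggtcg
It held 1 match, TATAAA at bases 114 to 119. No match to CCAAT or TGATTNAAT was in this window, which says only that those letters are not in it.

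Imprinted genes were called in both directions. Of 36 tested, 2 were called higher and 1 lower, with a median of 0.38, against 0.83% called higher and 0.277% called lower among all genes. Rtl1, a retrotransposon-derived gene expressed from the paternal allele, stood at 2.36, 3.20 and 2.62 CPM in clone 10 and at 0.135, 0.0456 and 0.0304 CPM in clone 4 (5.24, SE 0.90, adjusted p = 0.0302). Igf2, the paternally expressed insulin-like growth factor gene, stood at 45.6, 31.2 and 50.8 CPM in clone 10 and at 19.0, 17.7 and 18.8 CPM in clone 4 (1.20, SE 0.25, adjusted p = 0.0441). Mest, also expressed from the paternal allele, was lower, at 11.3, 5.14 and 2.95 CPM in clone 10 and 31.5, 25.8 and 48.8 CPM in clone 4 (-2.45, SE 0.50, adjusted p = 0.0422). The 3 genes lie on chromosomes 12, 7 and 6. Counts at Rtl1 were thus close to 0 in clone 4, while Mest and Igf2 had counts in both clones. The strand setting is not given, so antisense reads at these genes, Rtl1 included, cannot be told apart. Which allele the reads came from was not tested.

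Among pluripotency genes, 1 of 27 on the naive list and 1 of 18 on the formative list were called, both higher, against 0.83% of all genes. Fbxo15, an F-box gene known as a target of Oct4 and Sox2, stood at 1010, 548 and 1110 CPM in clone 10 and at 302, 137 and 124 CPM in clone 4 (2.25, SE 0.40, adjusted p = 0.0304). Sox3, a transcription factor gene of the SoxB1 group, stood at 36.6, 21.3 and 45.8 CPM in clone 10 and at 7.56, 9.44 and 7.75 CPM in clone 4 (2.07, SE 0.36, adjusted p = 0.0302). The lists as a whole had medians of 0.27 and 0.08. DNA methyltransferase and TET genes gave 0 calls of 13 with a median of 0.01, and germline genes 0 of 29 with a median of -0.15.

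**Figure D2:**
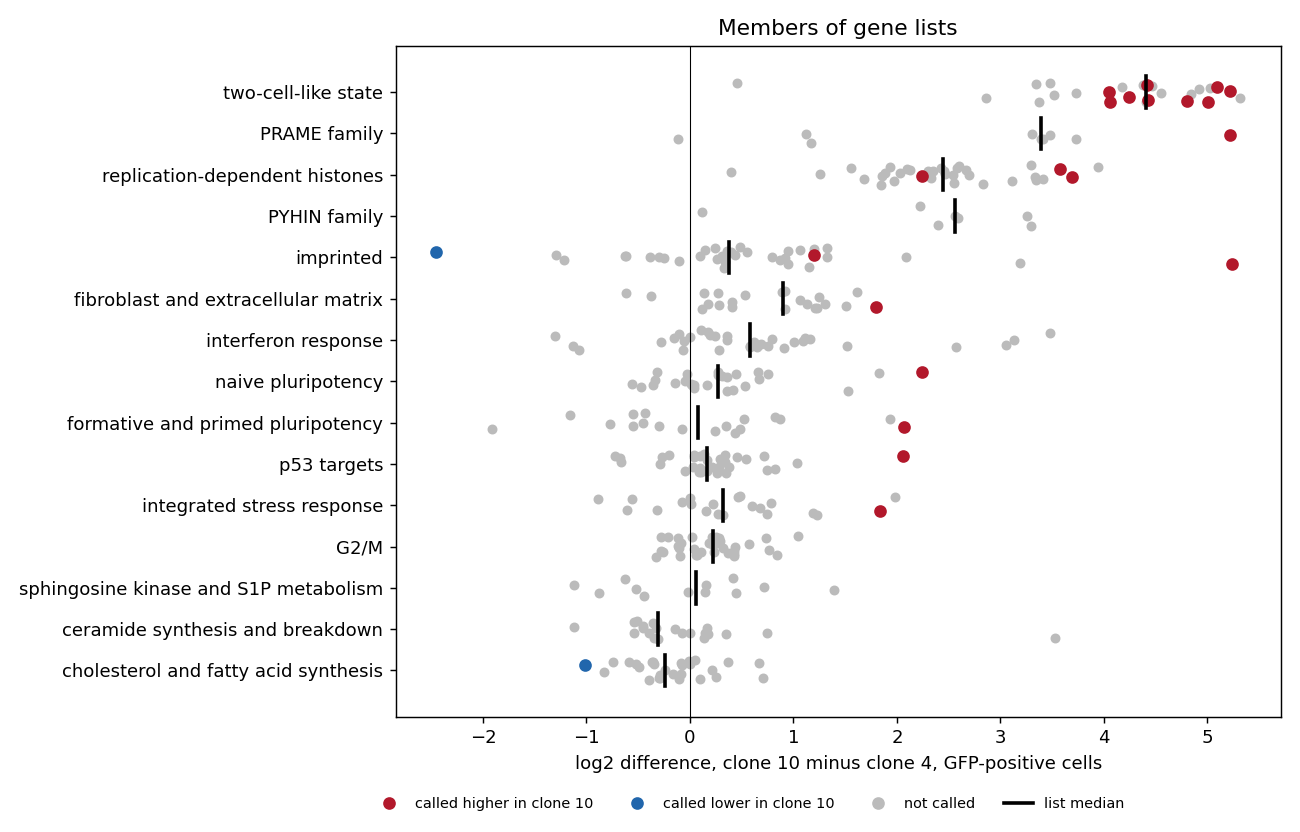
Log2 difference between clone 10 and clone 4 GFP-positive cells (x axis) for each tested member of 15 gene lists (y axis), with called genes in colour and a black bar at the list median. The 2-cell-like, PRAME, histone and PYHIN lists have medians of 4.40, 3.39, 2.44 and 2.57 (PYHIN 0.93 without clone 10 replicate 3), while the medians of the other lists lie between -0.31 and 0.90.

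Single calls came from the p53 target, integrated stress response and FGF lists, beside the 0.83% of all genes called higher. The unfolded protein response and immediate early lists gave 0 calls of 19 and 21. Plk2, a polo-like kinase gene on the p53 target list, stood at 303, 339 and 389 CPM in clone 10 and at 83.2, 66.5 and 96.9 CPM in clone 4 (2.06, SE 0.37, adjusted p = 0.0314), and was 1 of 32 on that list. Chac1, a glutathione-degrading enzyme on the integrated stress response list, stood at 13.1, 17.4 and 13.2 CPM in clone 10 and at 2.70, 3.74 and 5.78 CPM in clone 4 (1.84, SE 0.37, adjusted p = 0.0413), and was 1 of 21. Fgf15, a secreted growth factor, stood at 5.79, 10.9 and 6.09 CPM in clone 10 and at 0.90, 1.05 and 1.52 CPM in clone 4 (2.70, SE 0.51, adjusted p = 0.0352), and was 1 of 21 on the FGF list. Atf3, a transcription factor induced by stress, was not called at 17.8, 19.8 and 17.3 CPM in clone 10 and 4.05, 6.93 and 2.95 CPM in clone 4 (1.98, SE 0.47, adjusted p = 0.0619). Rimklb, which encodes a ligase that makes N-acetylaspartylglutamate, stood at 335, 241 and 455 CPM in clone 10 and at 81.2, 89.5 and 70.3 CPM in clone 4 (2.10, SE 0.24, adjusted p = 0.0136). These genes were high in all 3 clone 10 libraries, replicate 2 included.

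Fibroblast and immune genes varied between the libraries of a clone. Of 22 tested fibroblast and matrix genes 1 was called higher, against 0.83% of all genes. It was Vim, which encodes the intermediate filament vimentin, at 251, 306 and 221 CPM in clone 10 and 40.7, 79.5 and 104 CPM in clone 4 (1.80, SE 0.33, adjusted p = 0.0314). The list median was 0.90 in GFP-positive cells and 0.15 in GFP-negative cells, and in GFP-positive cells it was 0.19 without clone 10 replicate 3, 0.50 without clone 4 replicate 1 and 1.37 without clone 4 replicate 2. Col1a1, a collagen gene used here as a fibroblast marker, was not called (1.07, adjusted p = 0.666). It stood at 20.9, 47.8 and 125 CPM in clone 10 and at 11.8, 44.3 and 36.4 CPM in clone 4. The part of fibroblast RNA in the difference of Vim was not tested. Interferon response genes gave 0 calls of 33 with a median of 0.58, and the PYHIN genes 0 of 7 with a median of 2.57. Without clone 10 replicate 3 these medians were 0.30 and 0.93, and without clone 4 replicate 1 they were 0.31 and 2.15. Ifit3, induced by interferon, stood at 20.2, 5.11 and 81.5 CPM in clone 10 and at 1.08, 3.97 and 7.72 CPM in clone 4, so replicate 3 was the highest library of each clone (3.05, SE 1.15, adjusted p = 0.238). Ifi204, a PYHIN gene, stood at 1.79, 1.65 and 14.8 CPM in clone 10 and at 0.675, 0.958 and 1.40 CPM in clone 4 (2.57, SE 1.12, adjusted p = 0.321), and its difference was 0.75 without clone 10 replicate 3.

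The genes of sphingolipid metabolism gave 0 calls. Of all genes tested 1.11% were called, so 0 calls in lists this short says little about them. Medians were 0.06 over 12 genes of sphingosine 1-phosphate metabolism, -0.45 over 5 receptors, -0.31 over 21 ceramide genes and -0.21 over 17 sphingomyelin and glycosphingolipid genes. Sgpp1, a phosphatase of sphingosine 1-phosphate, stood at 18.9, 17.4 and 18.5 CPM in clone 10 and at 36.1, 31.3 and 33.6 CPM in clone 4 (-0.88, SE 0.22, adjusted p = 0.0746). Sgms1, a sphingomyelin synthase, stood at 211, 76.2 and 162 CPM in clone 10 and at 73.9, 32.1 and 37.1 CPM in clone 4 (1.65, SE 0.40, adjusted p = 0.0674). The clones did not overlap in either gene, and neither passed the test. S1pr1, a receptor of sphingosine 1-phosphate, stood at 2.36, 2.89 and 4.5 CPM in clone 10 and at 1.21, 0.821 and 1.49 CPM in clone 4 (1.46, SE 0.60, adjusted p = 0.288).

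The genes lower in clone 10 formed no single family. Erdr1, which encodes a secreted stress protein and is annotated on chromosome Y at 90784738 to 90816464, stood at 0.512, 0.539 and 0.703 CPM in clone 10 and at 5.76, 9.94 and 13.4 CPM in clone 4 (-4.05, SE 0.81, adjusted p = 0.0414). Ipp, a kelch repeat gene (chromosome 4, 116507549 to 116538243), stood at 16.3, 7.74 and 12.3 CPM in clone 10 and at 83.6, 101 and 96.8 CPM in clone 4 (-2.96, SE 0.40, adjusted p = 0.017). Rbm44, an RNA-binding protein gene of germ cells (chromosome 1, 91145103 to 91170795), stood at 10.9, 6.88 and 10.0 CPM in clone 10 and at 54.7, 39.6 and 33.4 CPM in clone 4 (-2.20, SE 0.30, adjusted p = 0.017). Each of these genes had its highest clone 10 library well below its lowest clone 4 library. Ido2, an enzyme of tryptophan breakdown, stood at 0.358, 0.73 and 0.937 CPM in clone 10 and at 5.08, 5.61 and 4.35 CPM in clone 4 (-2.88, SE 0.45, adjusted p = 0.0264). Atp1b2, a beta subunit of the sodium pump, stood at 19.7, 14.8 and 15.2 CPM in clone 10 and at 148, 94.1 and 48.1 CPM in clone 4 (-2.55, SE 0.48, adjusted p = 0.0352). Tmem173, which encodes the DNA-sensing adaptor STING, stood at 4.92, 2.38 and 5.25 CPM in clone 10 and at 25, 20.5 and 14.7 CPM in clone 4 (-2.27, SE 0.40, adjusted p = 0.0302). Clone 4 thus varied more than clone 10 in Atp1b2, and little in Ido2.

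The other named genes lower in clone 10 had smaller differences. Slc46a3, a lysosomal transporter gene, had a log2 difference of -2.32 (SE 0.48, adjusted p = 0.0438). Plekha2, which encodes a phosphoinositide-binding adaptor, had -2.02 (SE 0.43, adjusted p = 0.0492). Sec14l4 had -1.89 (SE 0.37, adjusted p = 0.0379) and Tmem54 had -1.87 (SE 0.40, adjusted p = 0.0489). Tmem63a, an ion channel gene, stood at 8.76, 9.87 and 6.94 CPM in clone 10 and at 22.2, 35 and 23.6 CPM in clone 4 (-1.66, SE 0.27, adjusted p = 0.0277). Of 29 genes of cholesterol and fatty acid synthesis, 1 was called lower and 0 higher, against 0.277% of all genes called lower, with a list median of -0.24. That gene was Scd1, a fatty acid desaturase, at 82.2, 70.5 and 53.7 CPM in clone 10 and 141, 143 and 132 CPM in clone 4 (-1.01, SE 0.20, adjusted p = 0.0402). Srebf1, the regulator of that pathway, stood at 98.6, 86.2 and 80.3 CPM in clone 10 and at 155, 148 and 141 CPM in clone 4 and missed the threshold (-0.75, SE 0.17, adjusted p = 0.0551).

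Erdr1 lies in the region that the mouse X and Y chromosomes share, and Mid1, the ubiquitin ligase gene at the boundary of that region, also had lower values in clone 10. Mid1 stood at 3.74, 4.28 and 5.62 CPM in clone 10 and at 19.3, 24.1 and 35.3 CPM in clone 4 (-2.53, SE 0.57, adjusted p = 0.0556). Genes of the Y chromosome proper were near 0. Uba1y had 0, 0 and 0 counts in clone 10 GFP-positive libraries and 39, 8 and 6 in clone 4 GFP-positive libraries, and in GFP-negative libraries 0, 0 and 0 in clone 10 and 18, 5 and 11 in clone 4. Eif2s3y, a translation factor gene, had 2, 1 and 3 counts in clone 10 and 31, 18 and 18 in clone 4 (-3.32, SE 0.96, adjusted p = 0.116). Ddx3y had 1, 1 and 4 counts in clone 10 and 7, 5 and 8 in clone 4. Usp9y had 3, 2 and 3 counts in clone 10 and 19, 3 and 3 in clone 4, Uty 0, 0 and 2 in clone 10 and 1, 1 and 3 in clone 4, and Kdm5d 0, 0 and 2 in clone 10 and 1, 0 and 2 in clone 4. Zfy1 had 0 counts in clone 10 and 4, 2 and 0 in clone 4, while Zfy2, Sry and Rbmy had 0 in all 6 libraries. Summed over the 10 genes, GFP-positive libraries had 6, 4 and 14 counts in clone 10 and 102, 37 and 40 in clone 4. These were at most 4.9 CPM by unscaled library totals. In GFP-negative libraries the sums overlapped, at 3, 10 and 25 counts in clone 10 and 44, 21 and 32 in clone 4. There Eif2s3y had 3, 0 and 6 counts in clone 10 and 23, 8 and 14 in clone 4. Ddx3y had 0, 7 and 9 in clone 10 and 1, 7 and 2 in clone 4.

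The opposite extreme held 4 genes with no count in any clone 4 GFP-positive library and at least 10 in each clone 10 GFP-positive library, and 0 genes the other way round. They were chosen after their values were seen. The odorant receptor gene Olfr107 had 22, 17 and 16 counts in clone 10, and the predicted genes Gm9116, Gm10718 and Gm6882 had 39, 29 and 46, then 40, 22 and 28, then 30, 19 and 25. In clone 10 GFP-negative libraries none of the 4 exceeded 4 counts.

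The position of the genes was compared next. Chromosomes 5, 8, 11 and 19 had medians below 0, a pattern singled out after its values were seen. The median log2 difference was -0.31 on chromosome 5 (969 genes), -0.30 on chromosome 8 (811 genes), -0.30 on chromosome 11 (1246 genes) and -0.26 on chromosome 19 (530 genes). Of the genes tested, 74.6%, 72.7%, 75% and 72.6% in that order had a value below 0. Each of these chromosomes had a median below 0 in 6 of 6 equal parts of its length. In windows of 10 Mb there were exceptions, with medians of 0.01 at 90 to 100 Mb of chromosome 5 and 0.0051 at 30 to 40 Mb of chromosome 19. Over chromosome 5, the median level relative to the mean of all 12 libraries was -0.16, -0.12 and -0.13 in clone 10 and 0.17, 0.13 and 0.15 in clone 4. The libraries of the clones did not overlap on any of these 4 chromosomes in GFP-positive or in GFP-negative cells, and medians in GFP-negative cells were -0.24, -0.22, -0.26 and -0.21. After adjustment for the GC content of the transcripts they were -0.38, -0.35, -0.35 and -0.33. Chromosomes 7, 10 and 13 also did not overlap in either gate, in the other direction, with medians of 0.10, 0.07 and 0.26. In GFP-positive cells alone the libraries overlapped only on chromosomes 1, 4, 15 and X, so lack of overlap in that gate did not set chromosomes 5, 8, 11 and 19 apart. Genes off chromosomes 5, 8, 11, 13, 19 and X had a median of 0.07. The labels give no karyotype of either clone.

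**Figure D3:**
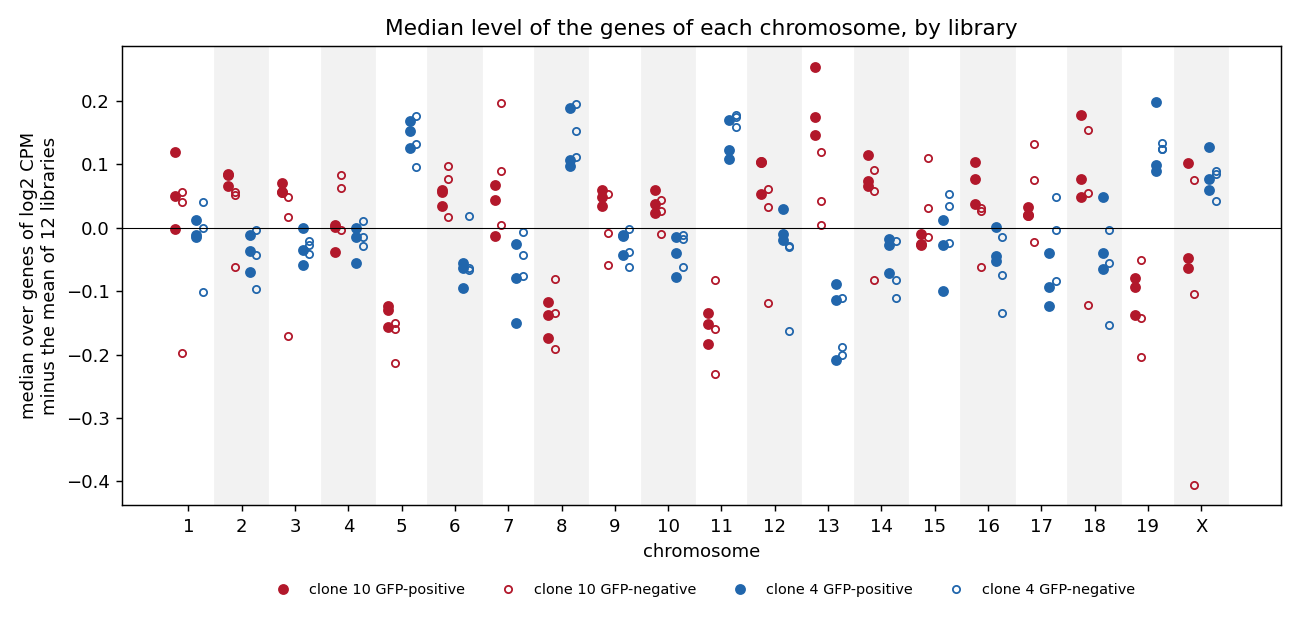
Median over the genes of each chromosome of log2 CPM minus the gene's mean over all 12 libraries (y axis), for every library (points) of clone 10 and clone 4, GFP-positive (filled) and GFP-negative (open). On chromosomes 5, 8, 11 and 19 all clone 10 points lie below 0 and all clone 4 points above 0, with chromosome 5 at -0.16 to -0.12 in clone 10 and 0.13 to 0.17 in clone 4 GFP-positive cells.

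The 4 chromosomes hold 3556 of the 15179 genes tested, or 23.4%. Of the 42 genes called lower, 23 (54.8%) lie on them, and of the 126 genes called higher 9 (7.14%) do. The chromosomes were singled out by their low medians in the same comparison, so these shares are partly built in. Ido2 and Plekha2 lie on chromosome 8, Atp1b2 and Sec14l4 on chromosome 11, Slc46a3 on chromosome 5 and Scd1 on chromosome 19. Differences of these genes ran from -2.88 in Ido2 to -1.01 in Scd1. The smallest difference of any gene called lower was -0.90, so every such gene lies beyond the median of these chromosomes, and that comparison shows nothing further. Without the called genes the chromosome medians were -0.31, -0.29, -0.30 and -0.26.

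In stretches shorter than a chromosome, 4 of 221 windows of 10 Mb with at least 20 genes had a median beyond 0.6 in size, all of them higher in clone 10. One was on chromosome 13 between 20 and 30 Mb, where 45 of 80 genes are histone genes and the median of the other 35 was 0.19. The windows from 100 to 120 Mb of chromosome 13 had a median of 0.72 over 88 genes, of which 82 were above 0. There the median level was 0.30, 0.62 and 0.29 in clone 10 and -0.42, -0.48 and -0.12 in clone 4. Plk2 lies in this stretch, which held 5 of the genes called higher and 0 of those called lower. Of all genes tested 0.83% were called higher and 0.277% lower. The stretch was singled out by its high median, so calls in that direction are partly built in. On chromosome X, the 84 genes below 30 Mb had a median of 0.79, with 79 above 0, and the 441 genes beyond 30 Mb had a median of -0.25. The stretch below 30 Mb stood at 0.43, 0.45 and 0.37 in clone 10 and at -0.27, -0.46 and -0.34 in clone 4. Kdm6a, a histone demethylase gene within it, stood at 172, 254 and 166 CPM in clone 10 and at 73.2, 68.3 and 127 CPM in clone 4 (1.14, SE 0.45, adjusted p = 0.269). In GFP-negative cells the medians were 0.72 for the stretch on chromosome 13 and 0.71 for that on X. Adjusted for GC content they were 0.54 and 0.70 in GFP-positive cells.

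The same clones were finally compared in GFP-negative cells. Same-numbered GFP-positive and GFP-negative libraries of a clone deviated together from their group means (r = 0.548 to 0.822 over the 6 pairs), so the gates are not independent of each other. There 7 genes were called (0.0461%), 6 higher and 1 lower, with 1802 at an unadjusted p under 0.05. All 126 genes called higher and all 42 called lower in GFP-positive cells had the same sign in GFP-negative cells, and the clones did not overlap there in 101 and 42 of them. Among all genes tested, 80.5% of those above 0 and 73.2% of those below 0 in GFP-positive cells had the same sign in GFP-negative cells, and 6.81% were higher and 7.03% lower without overlap there. Of the 168, 6 were also called in GFP-negative cells, among them Tmprss5 (5.66, adjusted p = 0.04 there) and Rbm44 (-2.38, adjusted p = 0.0293 there). The median of the higher genes was 3.44 in GFP-positive and 1.97 in GFP-negative cells, and that of the lower genes was -1.33 in GFP-positive and -1.23 in GFP-negative cells. Since these genes were chosen by their GFP-positive values, the smaller medians in GFP-negative cells are a description.

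**Figure D4:**
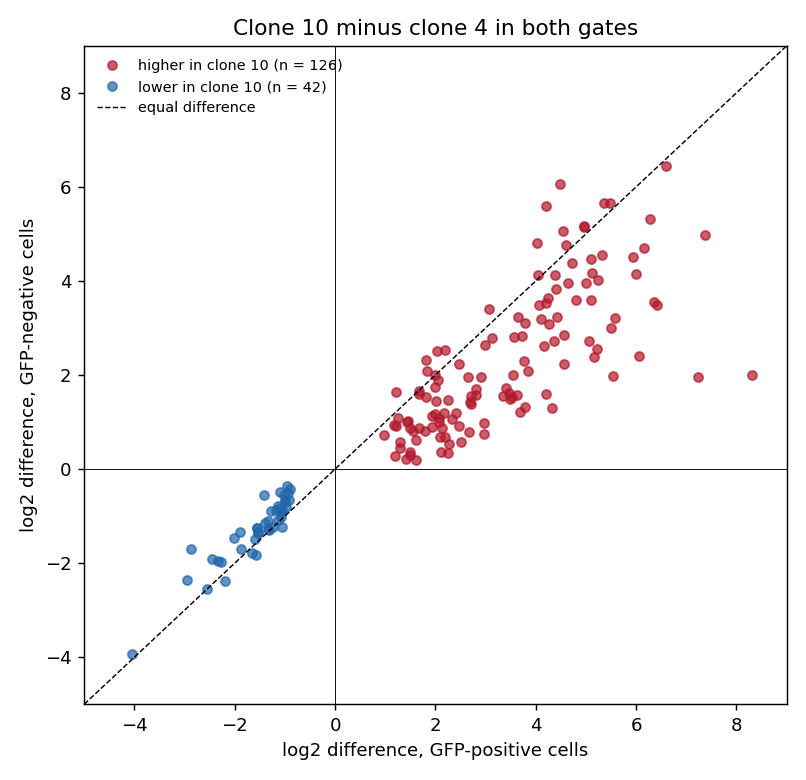
Log2 difference between clone 10 and clone 4 in GFP-positive cells (x axis) and GFP-negative cells (y axis) for the 126 genes called higher and the 42 called lower in GFP-positive cells, with a dashed line where both are equal. At every point both differences have the same sign, and 109 of the higher and 36 of the lower genes are larger in size in GFP-positive cells.

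Whether the clone difference itself differed between the gates was tested as a difference of differences. By the quasi-likelihood test of edgeR 0 of 15179 genes were called (0%), with 140 at an unadjusted p under 0.05. DESeq2 and limma-voom also called 0, with 228 and 131 genes at an unadjusted p under 0.05. With clone and replicate number as a block, which pairs the gates, 0 were called, 1167 were at an unadjusted p under 0.05 and the smallest adjusted p was 0.325. The genes with the smallest p in each direction were therefore not called. Hist1h4i stood at 199, 73.7 and 234 CPM in clone 10 GFP-positive and 12.9, 17.2 and 9.18 CPM in clone 4 GFP-positive cells, and at 29.9, 18.4 and 18.9 CPM in clone 10 GFP-negative and 7.76, 11.0 and 10.1 CPM in clone 4 GFP-negative cells. Its difference between gates was 2.47 and that of Rimklb 1.41. In the other direction, Lck, a kinase gene of lymphocytes, had -1.01 and Arhgap30 had -0.89.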

How the data were processed

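RNA was sequenced from 12 libraries of sorted mouse embryonic stem cells, prepared per the labels' protocols from total RNA with an Illumina TruSeq kit. The authors deposited raw read counts per gene (22753 genes, of which 22740 are protein-coding), and the submitters' processing notes name STAR 2.3.0e, HTSeq 0.6.0, DESeq, DESeq2 and the build mm10. Neither the strand setting nor the annotation release is given in the sources used here. Antisense and overlapping genes therefore cannot be told apart. The other deposited values used were gene coordinates, which the authors' tables hold beside the same counts.

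Groups were taken from the labels. Genes were kept by the edgeR filter on low counts (at least 10 counts at the median library size in 3 libraries, at least 15 in total), which left 15179. All 12 libraries entered 1 robust quasi-likelihood fit of edgeR 4.0.16 (R 4.3.3) with TMM scaling and 4 groups, so that they shared 1 estimate of the spread with 8 residual degrees of freedom. Adjusted p-values are Benjamini-Hochberg values over all genes tested, called under 0.05. An exact permutation test of 3 against 3 libraries cannot go below p = 0.1, so none was used. SE is that of the log2 difference. DESeq2 1.42.0, limma-voom (limma 3.58.1), other filters, scaling, covariates and each library left out were tried as alternatives. The fit was tested on simulated data. It recovered 7.46% of 67 genes changed 2-fold, 79.1% of 67 changed 4-fold and 92.4% of 66 changed 8-fold. Of its 127 calls, 8 were false.

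The same-numbered GFP-positive and GFP-negative libraries of a clone were treated as pairs in 1 alternative, since the correlation of every such pair was over 0.1 (0.548 to 0.822). Named genes were Sphk1 and Sphk2, the 12 called genes of largest difference in each direction, without overlap and with log2 CPM averaging at least 1 (predicted names left out), up to 3 of smallest p on each list, the Y-linked genes, and 2 per direction for the difference between gates. Pou5f1, Nanog and the fibroblast and blood genes were named as cell type markers. The genes, lists and stretches of chromosome were chosen with earlier results of these data known. Xist was not analysed here.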

Additional observations from a re-analysis of the deposited data

How the results depend on the processing

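The 168 genes called between the clones in GFP-positive cells became 892 with DESeq2, 423 with limma-voom and 376 with labelled passage as a covariate. They became 100 with a stricter filter on low counts, 38 when only the 6 libraries compared were fitted, and between 0 and 287 without 1 library. With the replicate number as a block 595 were called, but same-numbered libraries of the clones correlated at 0.574, -0.293 and -0.425, so the numbers do not pair the clones. Libraries of other numbers did deviate together, with r = 0.683 between clone 10 replicate 2 and clone 4 replicate 3 and 0.439 between clone 10 replicate 3 and clone 4 replicate 2 (0.577 and 0.53 in GFP-negative cells), and what they share was not tested. The 7 calls in GFP-negative cells became 405 with DESeq2, 11 with limma-voom, 4 with no filter, 22 with passage, 136 with the block and 0 with 6 libraries, and between 0 and 19 without 1 library. The difference between gates stayed at 0 calls under every alternative run, the block of clone and replicate number included.

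Direction reversed in genes that were not called. With labelled passage as a covariate Sphk1 was at -0.18, Col1a1 and Fn1 at -0.31 and Col1a2 at -0.94. Those labels may not be true passages. Leaving out 1 library at a time gave a range of -0.20 to 0.92 for Sphk1, -0.37 to 2.18 for Col1a2 and -0.082 to 0.31 for Fn1 (lowest without replicate 3 of clone 10 GFP-positive cells in these 3), -0.095 to 0.24 for Lck (lowest without replicate 2 of that group) and -0.0089 to 0.33 for Pou5f1 (lowest without replicate 2 of clone 4 GFP-positive cells). The cause was not tested. The medians of chromosomes 5, 8, 11 and 19 stayed between -0.38 and -0.22 over all settings, and the stretches on chromosomes 13 and X between 0.54 and 0.87. With 3 libraries a group, small differences were not detectable at this depth and spread, and the smallest difference called was -0.90.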

Other observations

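Some further genes did not overlap between the clones in GFP-positive cells and missed the threshold of the edgeR test. Lmx1a, a homeobox gene of the developing midbrain, stood at 71, 16.8 and 37.4 CPM in clone 10 and at 8.01, 3.56 and 1.19 CPM in clone 4 (log2 difference 3.30, SE 0.73, adjusted p = 0.0551). Foxa1, a pioneer factor of endoderm, stood at 12.1, 6.69 and 12.3 CPM in clone 10 and at 3.64, 2.83 and 2.52 CPM in clone 4 (1.79, SE 0.41, adjusted p = 0.0556). Dnajb9, a chaperone of the endoplasmic reticulum, stood at 45.6, 40.4 and 31.5 CPM in clone 10 and at 11.9, 12 and 14.5 CPM in clone 4 (1.61, SE 0.37, adjusted p = 0.0556). These 3 genes were higher in each clone 10 library.

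Tcf7, a transcription factor of Wnt signalling, stood at 65.5, 63 and 62.7 CPM in clone 10 and at 125, 115 and 95.9 CPM in clone 4 (-0.81, SE 0.19, adjusted p = 0.0579). Spns2, the exporter of sphingosine 1-phosphate, stood at 3.38, 3.43 and 4.08 CPM in clone 10 and at 7.69, 10.8 and 5.26 CPM in clone 4 (-1.12, SE 0.47, adjusted p = 0.294). Sptssb, a small subunit of serine palmitoyltransferase, stood at 1.69, 0.603 and 1.22 CPM in clone 10 and at 0.27, 0 and 0.0304 CPM in clone 4 (3.53, SE 0.98, adjusted p = 0.101). The lists of Nodal, Wnt and BMP genes had 0 calls of 16, 23 and 21, where 1.11% of all genes tested were called. Their medians were -0.01, 0.24 and 0.23.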
